A study of Mus musculus with 2 samples.

Results

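The genes described here are the Wnt ligands, their receptors, the secreted antagonists and the intracellular components and targets of the Wnt pathway, in 2 mouse tumours grown from the cell line RMS3. They were chosen by name, as the non-control spots whose gene name is Wnt, Fzd, Sfrp or Dkk with a number, or is Frzb, Wif1, Lrp5, Lrp6, Ctnnb1, Apc, Axin1, Axin2, Lef1, Tcf7, Tcf7l1, Tcf7l2, Nkd1, Nkd2 or Lgr5. This gave 51 genes, measured by 78 probes on 105 spots, of 19508 genes with a symbol on the array. No spot carried the name Tcf7l1. Per the labels, male C57BL/6J hosts received 1000000 RMS3 cells in 200 µl of PBS under the skin, and tumours were collected after 2 weeks. Both tumours had the same line, host strain, sex and time. The labels call RMS3 a PRMS line without writing the abbreviation out, give neither its alleles nor the age of the hosts, and speak of metastatic tumours in the harvest step but of subcutaneous ones elsewhere. A single-colour (Cy3) Agilent array was used per tumour, and there was no uninjected, untreated or cultured control, so the data are 1 group of 2 tumours. The tumours are RNA from line and host cells together, and fewer cells of a type cannot be told apart from less RNA per cell.

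Wnt proteins are secreted, lipid-modified ligands that bind Frizzled receptors. With the co-receptors Lrp5 and Lrp6 they keep beta-catenin (Ctnnb1) from being destroyed by a complex that holds Apc and Axin, and beta-catenin then joins Tcf and Lef factors on target genes. Other Wnt ligands act through Frizzleds without beta-catenin. In the embryo Wnt signals from the neural tube and surface ectoderm help to start the muscle programme, and in adult muscle they act on satellite cells.

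Levels are log2 signals relative to the 75th percentile of the array, which was a signal of 902 in tumour 2 and 995 in tumour 1. They compare the tumours for a probe, not different probes or genes. A probe counts as detected when the scanner software called at least 50% of its spots well above background. The lowest level so called was -6.33 in tumour 2 and -5.78 in tumour 1. Array 1 had 1128 outlier-flagged spots against 69 on array 2, with lost signal around them, so spots within 2 rows and columns of a flag on array 1, or of 11 spots of high local background on array 2, were left out of both arrays. This kept 81 of the 105 Wnt spots and 58 of the 78 probes. Repeat spots of a probe away from flags had a standard deviation of 0.11 in tumour 2 and 0.23 in tumour 1, which is error within an array. The differences of all 11139 genes detected in both tumours had a standard deviation of 0.51 and a median of 0.02 (tumour 2 minus tumour 1). A difference sets 1 tumour against 1, so no test was possible and no p-value is given. The number of arrays limits the precision. Of the muscle lineage markers, 7 of 8 measured were detected in both tumours, among them Myog at -2.11 in tumour 2 and -2.24 in tumour 1, whereas Myf5 was above background in neither. Of these 7 markers 5 were higher in tumour 2, with a median difference of 0.87. Des differed by 1.24, Myh3 by 1.07, Myh8 by 0.97 and Chrng by 0.87, while Myod1 (-0.35) and Myf6 (-0.48) were lower. The summed signal of the 7, as a multiple of the 75th percentile, was 9.45 in tumour 2 and 4.99 in tumour 1, most of it from Myh8. Such sums, here and for other markers below, add different probes, so they follow the brightest probes and do not measure an amount of cells.

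Of the 51 Wnt genes, 44 had a spot away from flags, and 28 of these were detected in both tumours. In the whole array 69.4% of the genes measured away from flags were so detected. A further 2 genes, Wnt4 and Wif1, were above background in tumour 2 only (3.33% of all genes), Lgr5 was above it in tumour 1 only (1.16%), and 13 were above it in neither. For all genes, the share in neither is at most what 69.4%, 3.33% and 1.16% leave. Of the 17 ligands measured, 10 were above background in neither tumour. All 10 receptors measured were above background in at least 1 tumour. The 28 genes detected in both differed little: 7 were higher and 21 lower in tumour 2, with a median difference of -0.11, where 48% of all detected genes were lower in tumour 2.

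**Figure D1:**
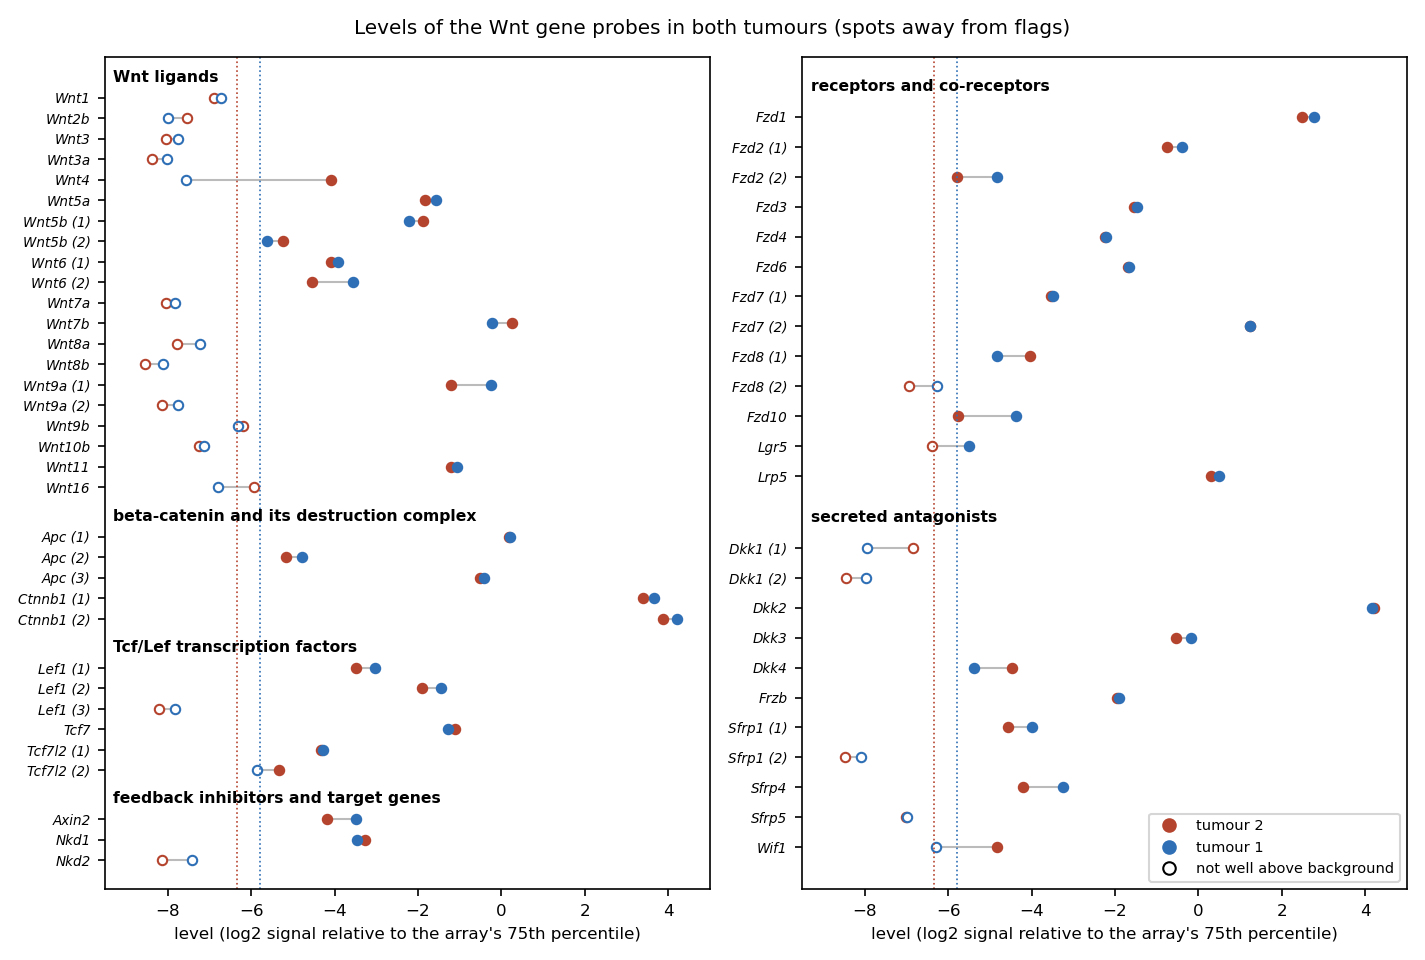
Level (log2 signal relative to the 75th percentile of the array) of each Wnt gene probe measured away from flags, in tumour 2 (red) and tumour 1 (blue), with open circles for values not well above background, dotted lines at the lowest level called on each array, and numbers in brackets for the probes of a gene. For most probes the circles lie close together, and Wnt4, the row with the longest line, is filled in tumour 2 and open in tumour 1.

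Among the ligands, 6 of the 17 measured were detected in both tumours: Wnt5a, Wnt5b, Wnt6, Wnt7b, Wnt9a and Wnt11. Wnt5a, the best known ligand of the beta-catenin-independent branch, had a level of -1.84 in tumour 2 and -1.56 in tumour 1. Wnt11, which acts in cell movement through the same branch, had -1.20 in tumour 2 and -1.07 in tumour 1. Both gaps, -0.28 and -0.13, were smaller than the spread of all genes. Wnt7b, a ligand of lung and skin epithelium, was at 0.26 in tumour 2 and -0.22 in tumour 1, or 0.48 higher in tumour 2. The 2 probes of Wnt5b gave -1.88 and -5.24 in tumour 2 against -2.21 and -5.61 in tumour 1. They thus differed by 0.33 and 0.37, each higher in tumour 2.

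Wnt9a, a ligand of joint formation in the limb, had the widest gap among the ligands detected in both tumours. Its level was -1.22 in tumour 2 and -0.24 in tumour 1, which is a gap of -0.98 (mean -0.73 ± 0.69, SD, n = 2). The other probe of Wnt9a was above background in neither tumour, so the value rests on 1 spot. The 2 probes of Wnt6 disagreed in size, with -4.09 and -4.55 in tumour 2 against -3.92 and -3.57 in tumour 1. The gap was -0.17 by the first and -0.98 by the second, and the tumours lay in the same order by both.

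Wnt4 stood out of all Wnt genes measured away from flags. This ligand of kidney, gonad and skin development gave a signal of 53.0 ± 5.91 in tumour 2 and 5.23 ± 3.68 in tumour 1, where the error is the scanner software's own for the spot. The level was -4.09 in tumour 2 and -7.57 in tumour 1, where it was not well above background. Set against the lowest level called on array 1, which is not a strict limit of detection, tumour 2 was 3.23-fold higher. The 84 spots around it that were above background had a median difference of 0.01. Of 7 keratinocyte markers measured, 4 were detected in both tumours, and they did not move together. Krt5 was 3.55 and Krt14 3.64 higher in tumour 2, Sfn differed by 0.18 and Krt1 by -0.09. Krt10 was above background in tumour 2 only, and Trp63 and Dsg3 were above it in neither. The summed level of the 4, as a multiple of the 75th percentile signal, was 13.95 in tumour 2 and 11.58 in tumour 1, most of it from Sfn. The part of such cells in the Wnt4 value was not tested.

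The ligands above background in neither tumour were Wnt1, Wnt2b, Wnt3, Wnt3a, Wnt7a, Wnt8a, Wnt8b, Wnt9b, Wnt10b and Wnt16. They include Wnt1 and Wnt3a, the ligands of the dorsal neural tube. The Wnt1 probe was printed 10 times. Its 8 spots away from flags ranged between -7.97 and -6.38 in tumour 2 and between -7.38 and -6.19 in tumour 1, with none well above background. Wnt16 at -5.94 and Wnt9b at -6.21 in tumour 2 lay above the lowest level called on that array but were not themselves called. For these genes the arrays give only an upper limit, not an absence.

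Wnt2 and Wnt10a had no spot away from flags. Wnt2 was at -0.02 in tumour 2 and -1.98 in tumour 1, a gap of 1.97, and its neighbours on the slide differed by a median of 0.51 in the same direction. Wnt10a, a ligand of skin appendages and teeth, was at 3.71 in tumour 2 and 2.45 in tumour 1. The spot is itself an outlier on array 1 and its neighbours had a median difference of 1.12, close to its own 1.27. Both ligands were above background in both tumours, whereas the size of their gaps was not separated from the slide.

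**Figure D2:**
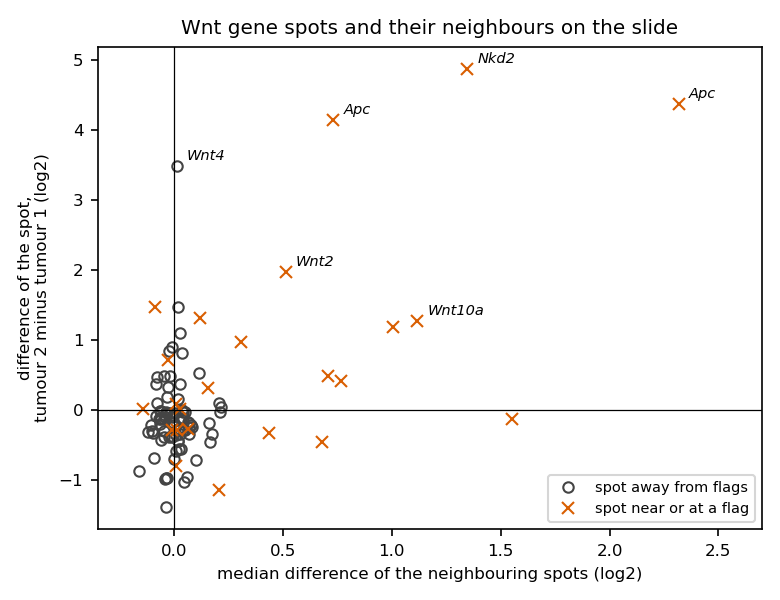
Difference of each of the 105 Wnt gene spots (tumour 2 minus tumour 1, log2) against the median difference of the spots above background within 5 rows and columns of it, with circles for spots away from flags and crosses for spots near or at a flag. Neighbours of circles lie between -0.16 and 0.21, while those of crosses reach 2.32, and Wnt4 is the circle at 3.48.

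The Frizzled receptors were nearly all present. Fzd1, Fzd2, Fzd3, Fzd4, Fzd6, Fzd7, Fzd8 and Fzd10 were detected in both tumours, as was the co-receptor Lrp5. Fzd1 had a level of 2.48 in tumour 2 and 2.77 in tumour 1. Fzd7, the Frizzled known from muscle satellite cells as a receptor of Wnt7a, gave 1.23 in tumour 2 and 1.25 in tumour 1 by 1 probe, and -3.54 in tumour 2 and -3.49 in tumour 1 by the other. Fzd3, Fzd4, Fzd6 and Fzd7 each differed by less than 0.1 between the tumours. Lrp5 was at 0.30 in tumour 2 and 0.50 in tumour 1.

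Fzd10 was the Wnt gene detected in both tumours that passed 2-fold, and it was higher in tumour 1. At least 2-fold higher in tumour 1 were 1.97% of all genes detected in both tumours, and 4.6% of those with a mean level below -3, where Fzd10 lies. Its signal was 16.5 ± 3.28 in tumour 2 and 47.8 ± 6.35 in tumour 1 (error of the scanner software). The levels were -5.77 in tumour 2 and -4.38 in tumour 1, so tumour 1 was 2.62-fold higher (difference -1.39). The difference was -0.41 after normexp background correction with an offset of 50, and no Fzd10 spot was left when spots within 5 rows and columns of a flag were dropped. A further probe of Fzd10 lay near a flag and was above background in neither tumour.

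Fzd8 went the other way, with -4.03 in tumour 2 and -4.84 in tumour 1, or 0.81 higher in tumour 2. Its other probe was above background in neither tumour, and with it counted the difference was 0.06. Fzd2 had -0.74 in tumour 2 and -0.39 in tumour 1 by 1 probe. The other probe of Fzd2 gave -5.79 in tumour 2 and -4.83 in tumour 1. Both were lower in tumour 2, by 0.35 and 0.97.

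Lgr5, a receptor of R-spondins and a target gene that marks stem cells of the gut and hair follicle, was at the edge of detection. Its signal was 10.8 ± 2.94 in tumour 2, not well above background, and 22 ± 4.64 in tumour 1, just above it. Set against the lowest level called on array 2, tumour 1 was 1.78-fold higher, but that level is not a strict limit of detection. Near flags, Fzd5, Fzd9 and Lrp6 were above background in both tumours. Lrp6, which carries the signal with Lrp5, was at -1.22 in tumour 2 and -0.94 in tumour 1, and Fzd9 at -2.38 in tumour 2 and -2.69 in tumour 1. Fzd5 was at -3.37 in tumour 2 and -4.84 in tumour 1. Another spot, which the array names AI427138 and RefSeq lists under Fzd5, lay away from flags, at -0.84 in tumour 2 and -0.78 in tumour 1.

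**Figure D3:**
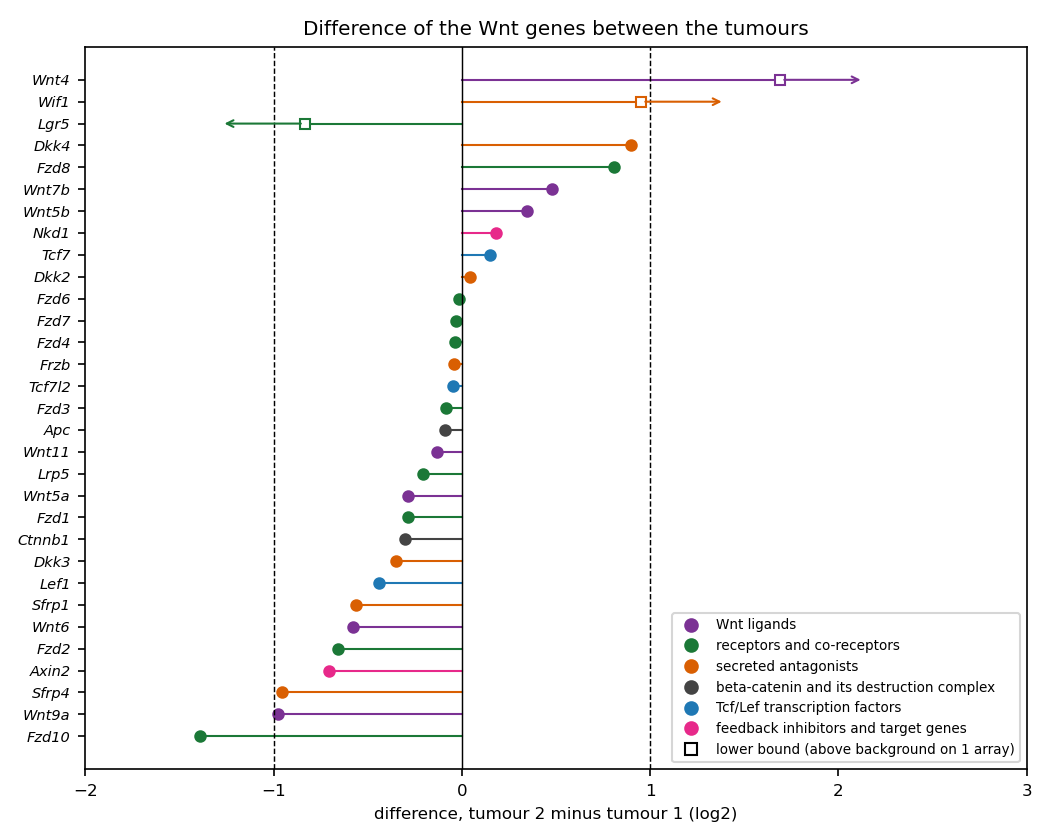
Difference (tumour 2 minus tumour 1, log2) of the 28 Wnt genes detected in both tumours, coloured by role, with dashed lines at 2-fold. Open squares with arrows are bounds of the 3 genes above background on 1 array, with the other array set at its lowest level called. Fzd10 alone lies beyond the left line and the bound of Wnt4 beyond the right.

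Secreted antagonists hold Wnts away from Frizzleds (Sfrp proteins, Frzb, Wif1) or block Lrp5 and Lrp6 (Dkk1, Dkk2, Dkk4). Of the 9 measured, Dkk2, Dkk3, Dkk4, Frzb, Sfrp1 and Sfrp4 were detected in both tumours. Dkk2 was at 4.22 in tumour 2 and 4.17 in tumour 1. Frzb, an antagonist of cartilage, was level at -1.95 in tumour 2 and -1.91 in tumour 1. Dkk3, a relative that does not block Lrp6 as Dkk1 does, had -0.53 in tumour 2 and -0.18 in tumour 1.

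Among antagonists detected in both tumours away from flags, Sfrp4 had the widest gap, with -4.20 in tumour 2 and -3.24 in tumour 1 (-0.95, and -0.38 after normexp correction). Sfrp1 was at -4.56 in tumour 2 and -4.00 in tumour 1 by 1 probe and above background in neither by the other. Sfrp2, a product of fibroblasts, had its only spot near a flag, at -1.25 in tumour 2 and -0.11 in tumour 1 (-1.15), while its neighbours had a median of 0.20 in the opposite direction. The 3 Sfrp genes above background in both tumours were thus all lower in tumour 2, where 48% of all detected genes were lower. Of the 3, Sfrp2 was outside the spot filter, and Sfrp1 differed by -0.14 after normexp correction. Of 8 fibroblast markers, all detected in both tumours, 7 were lower in tumour 2, with a median of -0.39. Their summed level was 108.5 in tumour 2 and 130.5 in tumour 1, most of it from Col1a2, which differed by -0.06. Dcn differed by -1.12, Mfap5 by -1.95 and Postn by -1.31. Of 6 endothelial markers, all detected in both tumours, 5 were lower in tumour 2, with a summed level of 3.301 in tumour 2 and 4.684 in tumour 1. The part of these cells in the values of Sfrp genes, and of Wnt9a and Axin2, which were lower in tumour 2 too, was not tested.

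Dkk4 and Wif1 went the other way. Dkk4 had -4.48 in tumour 2 and -5.38 in tumour 1, or 0.90 more in tumour 2 (0.40 after normexp correction). Wif1 had a signal of 31.7 ± 4.76 in tumour 2 and 12.6 ± 4.95 in tumour 1, not well above background. Against the lowest level called on array 1, tumour 2 was 1.94-fold higher, which is not a strict lower limit. Sfrp5 and both probes of Dkk1 were above background in neither tumour.

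Beta-catenin and Apc were detected by every probe away from flags and differed little between the tumours. The Ctnnb1 probe printed 10 times had 9 spots away from flags, which spanned 3.32 to 3.46 in tumour 2 and 3.51 to 3.73 in tumour 1. Every one of the 9 spots was lower in tumour 2, by 0.18 to 0.31, and how often other repeat probes did so was not counted. Another Ctnnb1 probe gave 3.87 in tumour 2 and 4.22 in tumour 1. The remaining probe, measured near a flag only, gave 2.90 in tumour 2 and 2.88 in tumour 1. The gap of -0.30 for the gene was larger than the spread of its repeat spots (SD 0.05 in tumour 2 and 0.07 in tumour 1) and smaller than the spread of all genes between the tumours. Repeat spots are not separate samples.

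Apc, the scaffold of the destruction complex, differed less away from flags. With all unflagged spots, where the median of all genes was -0.15, Ctnnb1 differed by -0.45 and Apc by -0.48. The 9 spots of its repeat probe spanned -0.58 to -0.41 in tumour 2 and -0.59 to -0.27 in tumour 1. These ranges overlap, 8 of the 9 spots were lower in tumour 2, and the probe differed by -0.09. The other 2 probes away from flags gave 0.17 and -5.16 in tumour 2 against 0.20 and -4.77 in tumour 1. The tenth spot of the repeat probe, near a flag, read -0.54 in tumour 2 and -4.67 in tumour 1, although it holds the same probe. Other Apc probes, near flags only, gave -1.59, -4.30 and -3.66 in tumour 2 against -0.79, -4.02 and -8.02 in tumour 1. The last of these was not above background in tumour 1. Axin1, a further scaffold of the complex, was measured near a flag only, at -0.84 in tumour 2 and -1.55 in tumour 1.

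**Figure D4:**
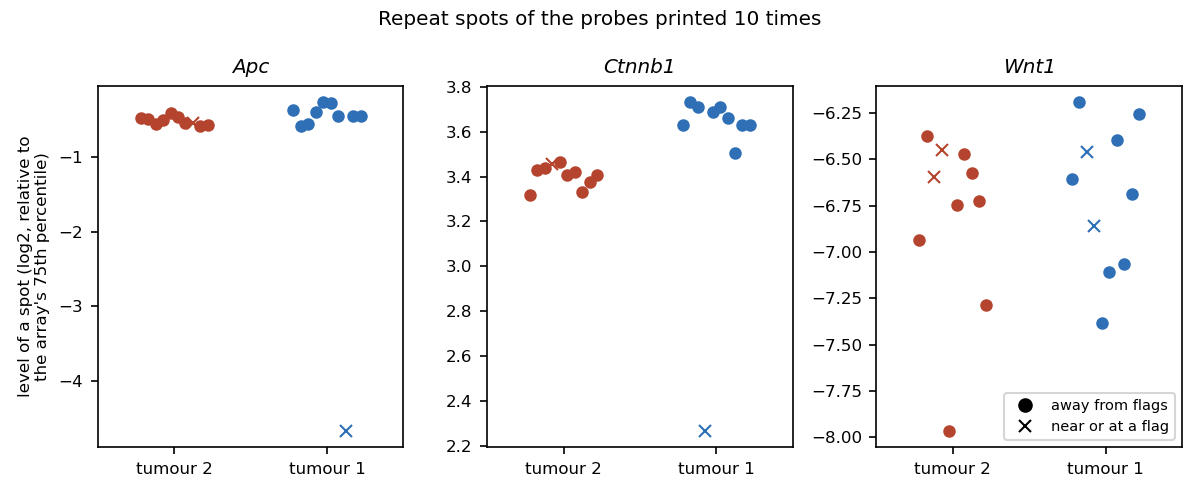
Level (log2, relative to the 75th percentile of the array) of the 10 spots of the probes for Apc, Ctnnb1 and Wnt1 in tumour 2 (red) and tumour 1 (blue), with dots away from flags and crosses near or at a flag. The dots of Ctnnb1 lie between 3.32 and 3.46 in tumour 2 and between 3.51 and 3.73 in tumour 1, and single crosses of Apc and Ctnnb1 fall far below the dots in tumour 1.

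All 3 Tcf and Lef factors, the DNA-binding partners of beta-catenin, were detected in both tumours. Lef1 was lower in tumour 2 by both detected probes, at -3.49 and -1.89 in tumour 2 against -3.04 and -1.45 in tumour 1, or by 0.45 and 0.44. The remaining Lef1 probe was above background in neither. Tcf7 was at -1.12 in tumour 2 and -1.27 in tumour 1. Tcf7l2 was at -4.32 in tumour 2 and -4.27 in tumour 1 by the probe detected in both away from flags. Another Tcf7l2 probe away from flags, at -5.32 in tumour 2 and -5.85 in tumour 1, was above background in tumour 2 only. Near flags, a Tcf7l2 probe gave -0.52 in tumour 2 and -0.60 in tumour 1, and a further one was above background in tumour 2 only. A probe that the array names Tcf3, with an accession that RefSeq lists as Tcf7l1, gave 2.58 in tumour 2 and 2.78 in tumour 1.

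Axin2, the feedback inhibitor that beta-catenin induces in most tissues, was detected in both tumours. Its signal was 49.7 ± 5.73 in tumour 2 and 89.5 ± 9.78 in tumour 1. The level was -4.18 in tumour 2 and -3.47 in tumour 1, lower in tumour 2 by 1.63-fold (mean -3.83 ± 0.50, SD, n = 2). This difference of -0.71 rests on 1 spot and was -0.33 after normexp correction. Nkd1, which binds Dishevelled and is also induced by the pathway, was level at -3.27 in tumour 2 and -3.45 in tumour 1. Nkd2 was above background in neither tumour away from flags. Its other probe lay near a flag, at -3.23 in tumour 2 and -8.10 in tumour 1, among neighbours with a median difference of 1.35.

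The start sites of 34 of the 51 genes matched the RefSeq table of promoters (GRCm38.p6), which gives 250 bases before and 50 after each start. They were searched on both strands for CTTTG followed by a pair of bases that are each A or T, letters that Tcf and Lef factors bind. Of 43 promoters of these genes 7 held a match (16.3%), and of all 32851 promoters 16.9% did. Shown are the windows of Axin2 and Dkk1, 2 classical targets of which the first was detected and the second was not, and of Wnt4, the ligand with the widest gap. Capitals mark matches, and those of Dkk1 begin at positions -117 and -98 from the start site.

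Axin2, chr11:108920099-108920398, plus strand: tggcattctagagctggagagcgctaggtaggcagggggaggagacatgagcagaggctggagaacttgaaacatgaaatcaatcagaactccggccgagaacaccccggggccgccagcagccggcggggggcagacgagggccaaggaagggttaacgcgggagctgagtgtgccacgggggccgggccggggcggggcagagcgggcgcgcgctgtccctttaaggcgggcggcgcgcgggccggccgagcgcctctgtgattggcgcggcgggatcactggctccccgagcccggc

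Dkk1, chr19:30549447-30549746, minus strand: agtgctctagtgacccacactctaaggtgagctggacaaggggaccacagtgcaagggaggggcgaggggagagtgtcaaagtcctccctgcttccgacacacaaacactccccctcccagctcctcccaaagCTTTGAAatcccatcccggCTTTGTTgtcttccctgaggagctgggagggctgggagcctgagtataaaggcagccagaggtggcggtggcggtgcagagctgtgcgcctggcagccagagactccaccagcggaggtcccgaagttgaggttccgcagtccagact

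Wnt4, chr4:137277385-137277684, plus strand: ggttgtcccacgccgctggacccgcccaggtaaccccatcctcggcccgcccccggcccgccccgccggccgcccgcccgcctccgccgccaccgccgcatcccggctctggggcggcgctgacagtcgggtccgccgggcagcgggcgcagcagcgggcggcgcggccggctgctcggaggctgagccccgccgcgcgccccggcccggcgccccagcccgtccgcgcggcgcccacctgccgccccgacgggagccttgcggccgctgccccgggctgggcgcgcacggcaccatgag

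Axin2, with a signal in both tumours, had no match in its window, and Dkk1, above background in neither, had 2. This picked pair is not a pattern of the Wnt genes. Fzd7, detected in both tumours, had a match. Of ligands above background in neither, Wnt3 had a match, and Wnt1 and Wnt3a had none. A match is a description of letters, and no match says only that these letters are not in this window.

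**Figure D5:**
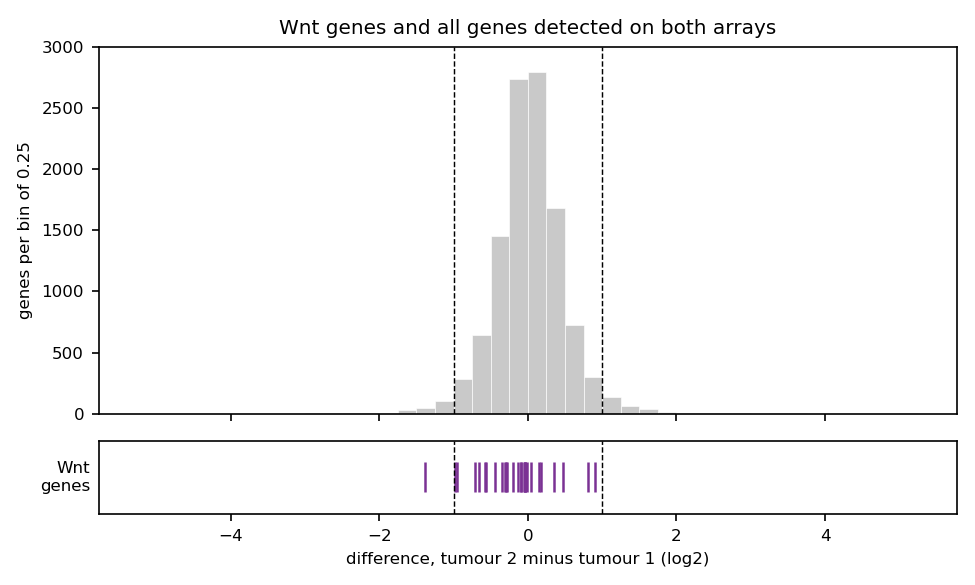
Number of genes detected in both tumours by their difference (tumour 2 minus tumour 1, log2, bins of 0.25, values beyond 5.2 placed in the end bins), above the 28 Wnt genes detected in both as ticks, with dashed lines at 2-fold. The Wnt genes span -1.39 to 0.90, with 1 tick beyond the left line and none beyond the right.

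By size, no Wnt gene detected in both tumours was at least 2-fold higher in tumour 2, where 2.6% of all genes were, and 1 of 28 was at least 2-fold higher in tumour 1. Of all genes with a mean level below -3, 4.32% passed 2-fold towards tumour 2. Of those at -3 or more, 2.1% did so towards tumour 2 and 1.2% towards tumour 1. By role, the median difference was -0.21 for the 6 ligands, -0.09 for the 9 receptors and co-receptors, -0.20 for the 6 antagonists and -0.05 for the 3 Tcf and Lef factors. Lower in tumour 2 by any amount were 4 of 6 ligands, 8 of 9 receptors, 4 of 6 antagonists and both beta-catenin complex genes. So were 2 of 3 Tcf and Lef factors and 1 of 2 feedback genes, where 48% of all detected genes were lower. The receptors counted as lower include Fzd3 (-0.09), Fzd4 (-0.03), Fzd6 (-0.02) and Fzd7 (-0.03), which were nearly level. Most gaps of the Wnt genes detected in both tumours were smaller than the spread of all genes, 0.51.

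Other genes of the pathway were taken from lists by role. Among genes that release Wnts or strengthen their signal, 7 of 8 measured were detected in both tumours and 1 was beyond 2-fold. This was Wls, which carries Wnt proteins to the cell surface, at -0.91 in tumour 2 and 0.29 in tumour 1 (-1.21, and -0.68 with all unflagged spots, which bring in other spots). Porcn, the enzyme that attaches the lipid to Wnts, was level at -1.11 in tumour 2 and -1.13 in tumour 1. Rspo1, a ligand of Lgr receptors, was 0.68 higher in tumour 2.

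Of 11 further receptors and membrane regulators measured, 9 were detected in both tumours. Rnf43, a ligase that removes Frizzleds and is induced by the pathway, was at -4.22 in tumour 2 and -5.36 in tumour 1 (1.14). Lgr4 was at -0.69 in tumour 2 and -0.53 in tumour 1. All 4 detected genes from the list of further antagonists were higher in tumour 2, by 0.22 to 1.16, where 48% of all detected genes were lower in tumour 2. With all unflagged spots the gaps were 0.02 (Sost), 0.02 (Draxin), 0.05 (Apcdd1) and 0.96 (Dkkl1), and the median of all genes was -0.15. Dkkl1 was at -3.40 in tumour 2 and -4.56 in tumour 1, and whether it blocks Wnt signals was not examined. Apcdd1, a membrane inhibitor, was at 2.48 in tumour 2 and 1.93 in tumour 1.

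None of the 11 cytoplasmic transducers detected in both tumours was beyond 2-fold, with differences from -0.29 to 0.19. Gsk3b, the kinase that marks beta-catenin for destruction, was at -2.21 in tumour 2 and -1.97 in tumour 1. The 8 nuclear cofactors detected spanned -0.55 (Bcl9) to 0.65 (Pygo2). Of the other reported target genes 12 of 16 measured were detected, with a median of 0.05, 7 higher and 5 lower in tumour 2. Myc, a growth regulator, was at 3.41 in tumour 2 and 2.66 in tumour 1. Ccnd1, a cyclin, was at 3.34 in tumour 2 and 3.26 in tumour 1. Sp5, a direct target in the embryo, was at 2.66 in tumour 2 and 2.08 in tumour 1. Ccn5 was the target beyond 2-fold away from flags, at -4.15 in tumour 2 and -2.98 in tumour 1 (-1.17). With all unflagged spots, Id2 (2.04), Jag1 (1.59), Fosl1 (1.07) and Ccn4 (-1.80) passed 2-fold as well. Away from flags Id2 differed by 0.09 and Jag1 by -0.37, and Fosl1 and Ccn4 had no spot. Many of these genes answer to other signals as well.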

How the data were processed

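The deposited files hold intensity per spot: a processed signal, the mean spot signal and its local background. Per the file headers, Feature Extraction 9.1.3.1 made them, with detrending inside each array, whereas the submitters' processing notes name version 8. Per the labels' protocols, Trizol RNA was labelled with Cy3. The deposited value table equals the processed signal at every spot (0 spots differing). The genome build is not given in the sources used here.

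Flagged areas were left out as described above, which kept 31299 of 43379 non-control spots (72.2%). The scanner software called 65.8% of these well above background for tumour 2 and 63.7% for tumour 1. Log2 processed signals minus the 75th percentile were averaged over the spots of a probe, and a gene's difference is the median over its probes detected on both arrays. Both arrays lay on 1 slide and in 1 scan, which leaves no batch to test. The labels do not say whether the tumours came from separate cultures. Accessions of 66 of the 78 Wnt probes matched RefSeq, none with another symbol. The text could name every Wnt gene, and from other pathway lists the first 4 detected genes and any gene at least 2-fold apart. Members, lists and the spot filter were chosen with earlier results of these data known. Alternatives covered the spot filter, background correction, scaling, detection and choice of probe. Analyses ran in Python 3.11.15 (numpy 2.4.6, pandas 2.3.3) and in R 4.3.3 (limma 3.58.1), and were tested on simulated data.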

Additional observations from a re-analysis of the deposited data

How the results depend on the processing

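The 2 arrays bear only large gaps, and dim genes such as Fzd10 and Lgr5 rest on signals near the calling limit. The 28 Wnt genes detected in both tumours became 34 with all unflagged spots. They became 18 when spots within 5 rows and columns of a flag were left out, and 14 in the lower rows only (below row 338 of 532). In the settings that gave 18 and 14 fewer spots were left. Without a filter on dim probes all 44 measured genes count whatever their signal, so that number says nothing about detection. Leaving out a tumour gave 29 to 30 genes detected in the other. Genes at least 2-fold higher in tumour 2, of which there were none, numbered 2 with all unflagged spots (Wnt2 and Fzd5, both measured near flags only) and 2 without the filter on dim probes. Genes at least 2-fold higher in tumour 1, of which there was 1, numbered 4 with all unflagged spots, 2 with quantile scaling and 3 with no scaling. They numbered 0 with spots within 5 rows and columns left out, 0 in the lower rows and 0 after normexp correction. Fzd10 had no spot left in the first 2 of these. Under normexp it differed by -0.41, with an added offset of 50 that exceeds its signals of 16.5 in tumour 2 and 47.8 in tumour 1. The median of all detected genes was -0.15 with all unflagged spots and -0.13 with no scaling, against -0.29 and -0.25 for the Wnt genes. The median over the Wnt genes lay between -0.29 and -0.03 in all 11 alternatives, below that of all genes in each. The counts were equal to those reported under loess (span 0.3), under scaling to the median of detected probes, with the brightest probe of a gene and with a call required at every spot. Single genes moved by over 0.51 in 3 cases, Fzd10 and Sfrp4 (-0.38) under normexp and Fzd8 (0.06) without the filter. The sign of Dkk2, Fzd6, Nkd1 and Tcf7l2, all within 0.2 of 0, turned under some alternatives. No paired analysis was possible because there is 1 group of tumours.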

Other observations

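Probes outside the chosen names also carried accessions or synonyms of Wnt genes. The spot named C030016K15Rik, listed under Lrp6, lay near a flag and was at -1.84 in tumour 2 and -7.34 in tumour 1, whereas the spot named Lrp6 differed by -0.28. The spot named D930050A07Rik, listed under Fzd3, was near a flag too, at -3.31 in tumour 2 and -2.47 in tumour 1, against a difference of -0.09 for the Fzd3 probe away from flags.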
